A study of Homo sapiens with 4 samples.

Results

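AP-1 is a family of dimeric transcription factors, and 10 of its genes and near relatives were followed here in HK-2 cells with and without induction of the fusion oncoprotein PRCC-TFE3. They comprise the FOS class (FOS, FOSB, FOSL1 and FOSL2), the JUN class (JUN, JUNB and JUND), ATF3, BATF3 and MAFF. The members were chosen by name as genes of the family. They and the gene lists used later were drawn up with earlier results of these data known, so their shares beside all genes are descriptions. The estimated counts of the members' transcripts were added up per gene symbol, which gave 10 of the 33886 gene symbols in the data. Of these, 9 passed a filter on low counts and were tested among 13542 genes, while FOS did not pass.

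HK-2 is an immortalised line derived from human kidney proximal tubule. All cultures carried a Tet-On transgene for HA-tagged PRCC-TFE3, in which a piece of PRCC is joined to TFE3, a transcription factor that binds E-box sequences. Doxy(+) cells received 0.2 microg/ml of doxycycline for 24 h, and Doxy(-) cells were grown in the same low-serum medium with no doxycycline. Polyadenylated RNA was sequenced in 2 libraries of each group. Cells without the transgene were not analysed here, so an effect of doxycycline and an effect of PRCC-TFE3 cannot be told apart. The labels do not say that the libraries come from separate cultures, so a p-value measures only the spread between these libraries, which may be technical. The sources used here do not say whether the cells descend from 1 clone.

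An AP-1 dimer grips DNA through the basic leucine zipper (bZIP) of each partner and binds the heptamer TGACTCA. JUN proteins pair with themselves, with FOS proteins or with ATF proteins, whereas FOS proteins need a JUN partner. Growth factors and stress act on the family through MAP kinases, which raise transcription of the genes and phosphorylate the proteins, and in epithelial cells AP-1 drives genes of proliferation, migration, matrix turnover and inflammation. Messenger RNA levels, which are measured here, do not show dimer composition, phosphorylation or DNA binding.

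In these cells the log2 fold change was negative for 8 of the 9 tested members and positive for 1. FOSL2, JUN, FOSL1 and ATF3 fell by between 20.8% and 27.8%, and MAFF rose by 30.5%. FOSB, JUNB, JUND and BATF3 did not pass the test. The differences were small next to the fold limit used in the study, since no member reached a log2 fold change of 1 in size. By edgeR's quasi-likelihood test with Benjamini-Hochberg adjustment over all 13542 genes, 4 of the 9 tested members (44.4%) were lower at an adjusted p under 0.05, beside 9.59% of all genes tested, and 1 of 9 (11.1%) was higher, beside 9.81%. All 9 had a mean of at least 5 CPM (counts relative to a library total scaled by the TMM method). Among the 10911 tested genes at that level, a limit chosen after the data were seen, 11.6% were lower and 11.2% were higher. With the fold limit added, 1.5% of all tested genes were higher and 0.473% were lower, against 0 members in either direction. The median log2 fold change, Doxy(+) over Doxy(-), was -0.34 over the 9 members and 0.000723 over all genes tested. Without Doxy(+) 1 the count became 2 lower and 0 higher, without Doxy(+) 2 it became 5 and 0, and with limma on log2(TPM + 1) it became 1 and 0. RNA of the whole culture was measured, so fewer cells with a transcript and less of it per cell cannot be told apart.

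**Figure D1:**
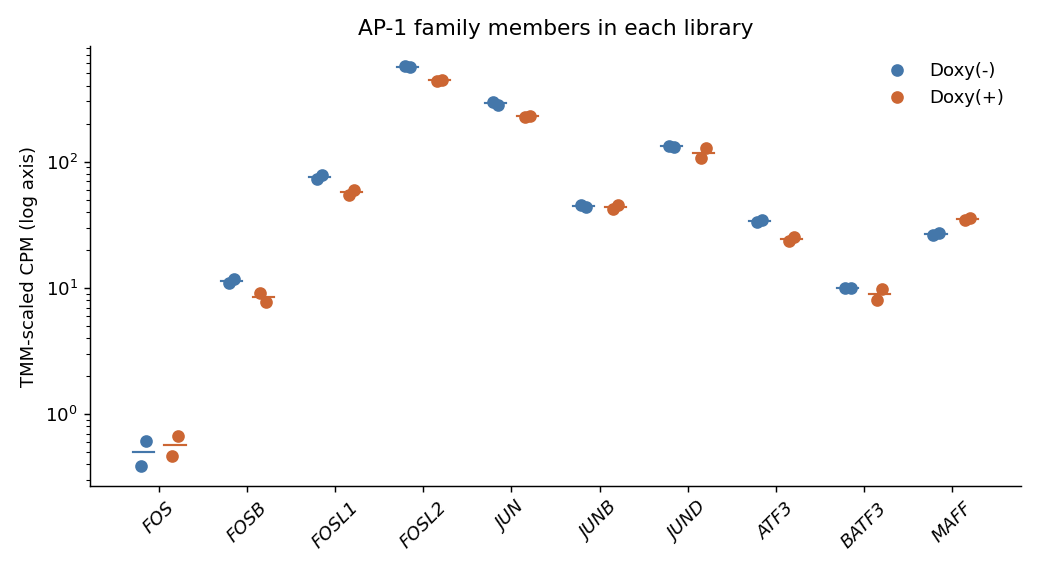
TMM-scaled CPM (log axis) of each of the 10 members, with 1 point per library and a bar at the mean of the 2 Doxy(-) (blue) or 2 Doxy(+) (orange) libraries. FOSL2 stands at 559 to 573 CPM in Doxy(-) and 439 to 443 CPM in Doxy(+), MAFF is the gene whose Doxy(+) points lie clear above the Doxy(-) points, and FOS stays below 1 CPM throughout.

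The FOS class was examined first. FOSL2 (also called FRA2, ENSG00000075426.12, chromosome 2, 28392448 to 28417317, plus strand, hg38) encodes a FOS protein without the strong activation domain of FOS itself. It measured 573 and 559 CPM without doxycycline and 439 and 443 CPM with it. Both Doxy(+) values lay below both Doxy(-) values, and the means of 566 ± 9.90 and 441 ± 2.73 CPM (SD, n = 2 each) differed by far more than either SD. Its log2 fold change was -0.36 (SE 0.0298, 95% interval -0.43 to -0.29, edgeR adjusted p = 0.000864). FOSL2 rested on 5649 to 8212 estimated reads per library, the most of any member, and its fall kept an adjusted p under 0.05 in each of the 13 alternative settings that were fitted (0.0377 at the highest).

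FOSL1 (FRA1, ENSG00000175592.9, chromosome 11, 65892049 to 65900573, minus strand) is a FOS protein known for its accumulation under sustained growth factor signalling and for its part in invasive growth of epithelial tumours. It was at 72.6 and 78.7 CPM in Doxy(-), against 54.6 and 59.6 CPM in Doxy(+), with no overlap between the groups. The means were 75.6 ± 4.28 and 57.1 ± 3.53 CPM (SD, n = 2 each). The log2 fold change was -0.41 (SE 0.0698, 95% interval -0.58 to -0.24, edgeR adjusted p = 0.0113). Leaving out Doxy(+) 1 ended the call (-0.35, edgeR adjusted p = 0.0689), and the adjusted p ranged from 0.000207 to 0.0689 over the 13 settings. FOSL1 has an annotated pseudogene, FOSL1P1, which took 0 reads in 3 libraries and 0.0777 CPM in Doxy(+) 1.

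FOSB (ENSG00000125740.15, chromosome 19, 45467995 to 45475179, plus strand) is induced early by many stimuli and yields a long and a truncated protein. FOSB was at 11.0 and 11.8 CPM in Doxy(-), against 9.16 and 7.75 CPM in Doxy(+). The groups did not overlap, but its log2 fold change of -0.44 had an SE of 0.141 and did not pass the test (edgeR adjusted p = 0.0826). The 95% interval was -0.78 to -0.09, and FOSB rested on 104 to 174 estimated reads per library. FOS (ENSG00000170345.10, chromosome 14, 75278826 to 75282230, plus strand), the founding member and an immediate-early gene with a short-lived transcript, was at the edge of detection. FOS had 5 and 9 estimated reads without doxycycline and 6 and 9 with it, or 0.388 to 0.670 CPM over the 4 libraries. A difference in FOS was not detectable at this depth. Without the low-count filter its log2 fold change came to 0.17 (SE 0.607, edgeR adjusted p = 0.904).

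Next, the JUN class was compared. JUN (ENSG00000177606.9, chromosome 1, 58776845 to 58784048, minus strand) is the main target of the JNK kinases and activates its own promoter. It was at 299 and 279 CPM in Doxy(-), against 226 and 232 CPM in Doxy(+). The groups did not overlap, and the means were 289 ± 13.9 and 229 ± 4.58 CPM (SD, n = 2 each). The log2 fold change was -0.34 (SE 0.0440, 95% interval -0.44 to -0.23, edgeR adjusted p = 0.00439). The call held without any 1 library, and was lost with limma on log2(TPM + 1) and on log2(TPM + 0.1), where the adjusted p was 0.0559 and 0.0589. JUN has 1 transcript in the data, so no reads were divided between isoforms.

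JUNB (ENSG00000171223.6, chromosome 19, 12791486 to 12793315, plus strand) is a weaker activator that can oppose JUN in proliferating cells. It was at 45.5 and 44.1 CPM in Doxy(-), against 42.5 and 45.7 CPM in Doxy(+), so the groups overlapped. For JUNB the log2 fold change came to -0.02 (SE 0.0633, edgeR adjusted p = 0.844), with a 95% interval of -0.18 to 0.13, and the sign turned with limma on TPM and without Doxy(+) 1. HOOK2, which encodes a microtubule-binding protein, overlaps 259 exonic bases of JUNB on the opposite strand. HOOK2 rose from 32.1 and 31.7 CPM to 41.2 and 41.2 CPM (log2 fold change 0.37, edgeR adjusted p = 0.00885), and whether the counting used the strand is not stated in the sources used here.

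JUND (ENSG00000130522.6, chromosome 19, 18279694 to 18281622, minus strand) differs from the other JUN genes in being expressed steadily in resting cells. It was at 132 and 131 CPM in Doxy(-), against 107 and 129 CPM in Doxy(+). Doxy(+) 1 lay well below the Doxy(-) libraries and Doxy(+) 2 only just below them. The log2 fold change was -0.16 (SE 0.0850, 95% interval -0.37 to 0.04, edgeR adjusted p = 0.243). Without Doxy(+) 2 it was -0.30 and passed the test (edgeR adjusted p = 0.0377), and over the 13 settings the adjusted p ran from 0.0377 to 0.785.

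**Figure D2:**
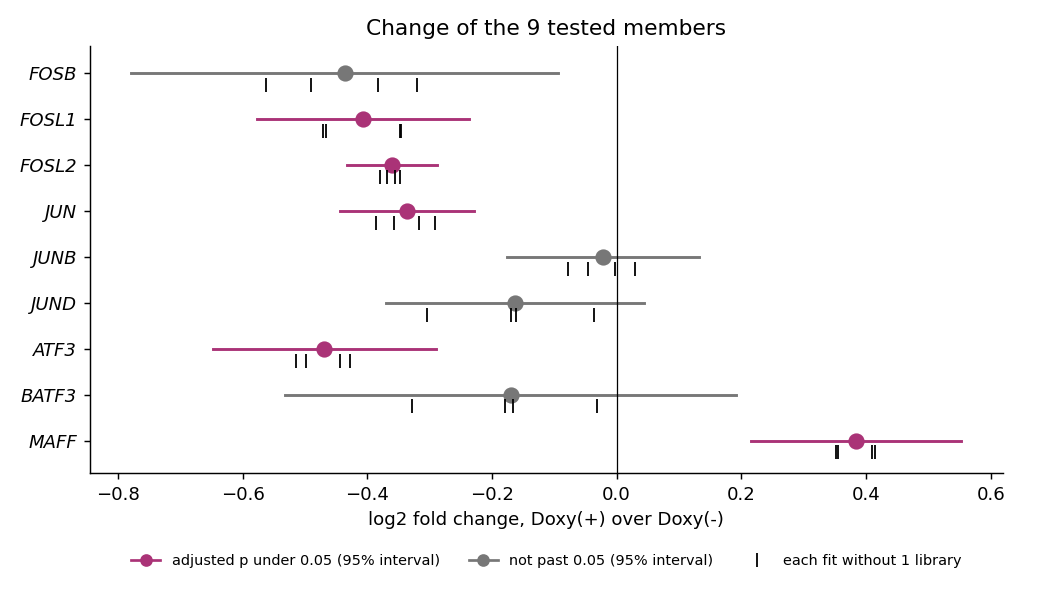
Log2 fold change of the 9 tested members, Doxy(+) over Doxy(-), with points at the edgeR estimate, bars for its 95% interval and ticks for the 4 fits that each leave out 1 library. FOSL1, FOSL2, JUN and ATF3 (purple) lie between -0.47 and -0.34, MAFF lies at 0.38, and the ticks of JUNB fall on both sides of 0.

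The members outside the FOS and JUN classes moved in different directions. ATF3 (ENSG00000162772.18, chromosome 1, 212565334 to 212620777, plus strand) is a stress-induced factor that represses as a homodimer and can pair with JUN proteins. It was at 33.2 and 34.4 CPM in Doxy(-), against 23.7 and 25.2 CPM in Doxy(+), and the means were 33.8 ± 0.870 and 24.4 ± 1.05 CPM (SD, n = 2 each). The groups did not overlap. The log2 fold change was -0.47 (SE 0.0735, 95% interval -0.65 to -0.29, edgeR adjusted p = 0.00806), the most negative among the 9 tested members. Without Doxy(+) 1 the call was lost (-0.43, edgeR adjusted p = 0.0577). The highest adjusted p in any setting, 0.184, came with limma on log2(TPM + 0.1).

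BATF3 (ENSG00000123685.9, chromosome 1, 212686417 to 212699840, minus strand) lies near ATF3 on the chromosome, on the other strand. Its protein is little more than a bZIP, pairs with JUN proteins and is best known from the development of dendritic cells. BATF3 was at 10.01 and 10.07 CPM in Doxy(-), against 7.999 and 9.83 CPM in Doxy(+). Both Doxy(+) values were lower, though Doxy(+) 2 only slightly. On 103 to 148 estimated reads per library, the log2 fold change was -0.17 (SE 0.149, 95% interval -0.53 to 0.19, edgeR adjusted p = 0.482).

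MAFF (ENSG00000185022.12, chromosome 22, 38200767 to 38216507, plus strand) is a small MAF protein. It has no activation domain of its own, and acts as a homodimer that represses or as the partner of NRF and BACH proteins at antioxidant response elements. MAFF was at 26.4 and 27.4 CPM in Doxy(-), against 34.3 and 35.8 CPM in Doxy(+). Both Doxy(+) libraries were above both Doxy(-) libraries, and the means were 26.9 ± 0.693 and 35.1 ± 1.06 CPM (SD, n = 2 each). This was a 1.31-fold rise, with a log2 value of 0.38 (SE 0.0691, 95% interval 0.22 to 0.55, edgeR adjusted p = 0.0134). The size held in every setting (0.35 to 0.44), but the call did not. It was lost without Doxy(+) 1 (0.41, edgeR adjusted p = 0.0585) and without Doxy(+) 2 (0.35, edgeR adjusted p = 0.0874), and the adjusted p ranged from 0.00944 to 0.0874. PLA2G6, a phospholipase gene, overlaps 326 exonic bases of MAFF on the opposite strand. It rose as well, from 8.77 and 9.12 CPM to 12.3 and 12.7 CPM (0.48 on the log2 scale, SE 0.117, edgeR adjusted p = 0.0356), and its part in the MAFF value was not tested.

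To show what lies in front of the genes that moved, the RefSeq promoter windows of the members (GRCh38.p14, from 250 bases before to 50 bases after a transcription start) were searched on both strands. The motifs were the AP-1 heptamer TGACTCA, the cAMP response element TGACGTCA to which JUN and ATF dimers bind, the E-boxes CACGTG and CATGTG, the extended E-box TCACGTGA that TFE3 and its relatives favour, and the CArG box of SRF. The form TGACATCA, known from the promoter of JUN, was added after the sequences had been seen. Of the 10 members, 8 had an entry, with 10 windows in all. FOSL1, which fell, and BATF3 had no entry, so their promoters were not searched. The stretches around the matches upstream of the start are given in the direction of transcription, with the matched letters in capitals.
JUN, chr1:58784087-58784134, minus strand: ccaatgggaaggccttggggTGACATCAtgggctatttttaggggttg
ATF3, chr1:212565264-212565311, plus strand: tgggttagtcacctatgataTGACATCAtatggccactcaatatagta
JUND, chr19:18281795-18281842, minus strand: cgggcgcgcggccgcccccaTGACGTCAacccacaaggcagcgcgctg
FOSL2, chr2:28392787-28392832, plus strand: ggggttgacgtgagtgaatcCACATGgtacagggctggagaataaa
MAFF, window 1, chr22:38201777-38201967, plus strand: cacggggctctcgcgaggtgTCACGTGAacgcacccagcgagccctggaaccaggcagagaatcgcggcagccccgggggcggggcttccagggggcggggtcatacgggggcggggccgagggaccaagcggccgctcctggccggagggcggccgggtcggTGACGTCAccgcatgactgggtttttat
MAFF, window 2, chr22:38202919-38202964, plus strand: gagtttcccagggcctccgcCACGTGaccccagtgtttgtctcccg

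JUN and ATF3, which both fell, had the letters TGACATCA at 67 to 60 and at 123 to 116 bases before the start, a form present in 2.61% of the 35116 windows in the table. FOSL2 had TGACTCA at bases 4 to 10 after its start, a match that 4.95% of windows hold, and CATGTG on the reverse strand, which 11.1% hold. JUND had TGACGTCA (1.85% of windows) at 200 to 193 bases before the start. MAFF, the member that rose, had 2 start sites with a CACGTG each, a motif in 7.26% of windows. In window 1 the CACGTG is the core of a TCACGTGA (0.98% of windows) at 197 to 190 bases before the start, and a TGACGTCA lies at 54 to 47 bases before it. FOS, FOSB, JUNB and the other ATF3 window held none of these letters. That ATF3 window (chr1:212614768-212615067) lies inside the gene. Which ATF3 transcripts begin at its windows was not examined, so the start of its most abundant form may not have been searched. Letters more than 250 bases before a start were not searched, so a motif farther upstream would be missed. These matches describe the letters of the windows and carry no measurement of binding.

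Levels of different genes were compared per length, in TPM, the abundance of a transcript after division by its effective length. JUN (133 and 123 TPM) and FOSL2 (132 and 125 TPM) led in Doxy(-), and their library values overlapped. JUND followed at 111 and 106 TPM, below all of these values. In Doxy(+), JUN (103 and 106 TPM), FOSL2 (102 and 103 TPM) and JUND (89.4 and 108 TPM) all overlapped. FOSL1 was next in both groups, at 72.0 and 77.7 TPM in Doxy(-) and at 54.9 and 60.7 TPM in Doxy(+). JUNB (36.5 to 39.2 TPM over all 4 libraries) stood above ATF3 in Doxy(+), where ATF3 was at 21.8 and 26.7 TPM. In Doxy(-) the 28.9 and 38.8 TPM of ATF3 spanned the 38.1 and 36.6 TPM of JUNB. Of those ATF3 values, 4.51 and 15.5 TPM came from ATF3-205, a 516-base form with 16.9 and 66.8 estimated reads. Summed over all transcripts of each gene, MAFF moved from below BATF3 to above it. MAFF was at 17.3 and 17.4 TPM against 19.995 and 19.7 TPM for BATF3 in Doxy(-), and at 23.0 and 24.2 TPM against 16.6 and 21.5 TPM in Doxy(+). FOSB (3.90 to 5.94 TPM) and FOS (0.388 to 1.47 TPM) were last in each library.

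The total and the make-up of the family were then set side by side. The 10 members together held 559 and 551 TPM in Doxy(-) and 454 and 494 TPM in Doxy(+), with means of 555 ± 5.42 and 474 ± 28.3 TPM (SD, n = 2 each). The FOS class went from 211 and 210 TPM to 163 and 169 TPM, and the JUN class from 282 and 266 TPM to 229 and 253 TPM, with no overlap between groups in either. FOSL2 made up 61.1% ± 1.96 of FOS-class TPM in Doxy(-) and 61.9% ± 0.926 in Doxy(+), a difference within the SD. FOSL1 took 35.6% ± 2.03 and 34.8% ± 1.64, so FOSL2 and FOSL1 were nearly the whole class in both groups. Within the JUN class, the share of JUN was 46.8% ± 0.517 in Doxy(-) and 43.5% ± 2.22 in Doxy(+). The share of JUNB was 13.6% ± 0.188 and 15.7% ± 0.302, with no overlap, and that of JUND was 39.6% ± 0.329 and 40.8% ± 2.53. MAFF took 3.13% ± 0.0373 of the TPM of all members in Doxy(-) and 4.99% ± 0.108 in Doxy(+). These sums and shares were not tested.

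**Figure D3:**
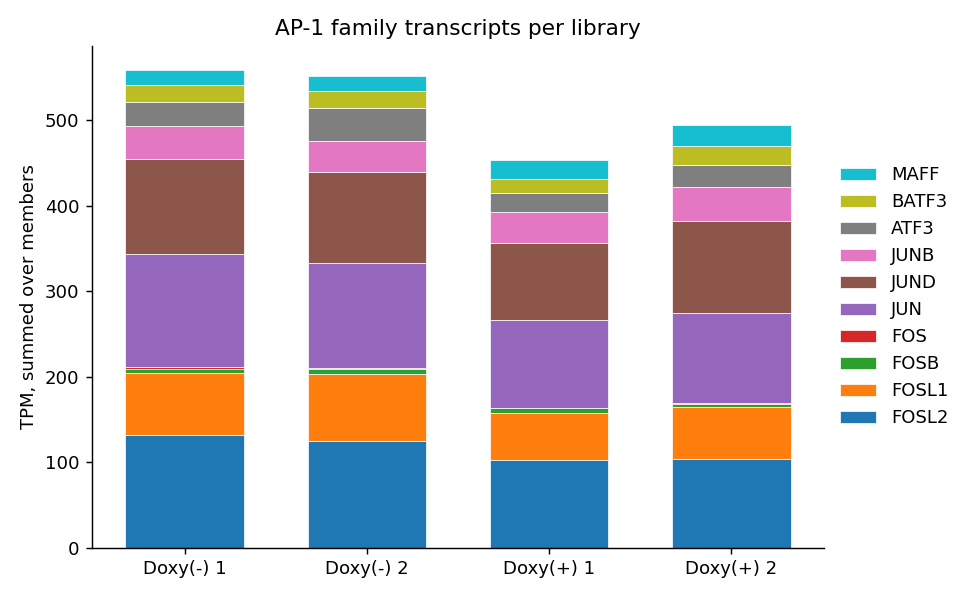
TPM of the 10 members stacked for each of the 4 libraries, from 0. The stacks reach 559 and 551 TPM in Doxy(-) and 454 and 494 TPM in Doxy(+), and JUN, FOSL2, JUND and FOSL1 form most of each stack.

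The other bZIP genes that AP-1 proteins pair with or resemble showed no common direction. Of 26, 21 were tested, and 5 were higher (23.8%, beside 9.81% of all genes tested) and 3 lower (14.3%, beside 9.59%), with a median log2 fold change of 0.00269. DDIT3 (CHOP), a factor of the unfolded protein response, rose from 31.7 and 26.7 CPM to 72.5 and 71.9 CPM (1.31 on the log2 scale, SE 0.0855, edgeR adjusted p = 0.000397) and was the one relative past the fold limit. MAFG, a small MAF protein like MAFF, rose from 77.7 and 72.7 CPM to 97.6 and 100.5 CPM (0.40, SE 0.0543, edgeR adjusted p = 0.00503). BACH1, a repressor that uses small MAF partners at antioxidant response elements, rose from 36.1 and 42.1 CPM to 55.9 and 52.6 CPM (0.47, SE 0.0857, edgeR adjusted p = 0.0140). The BACH1 call was lost without Doxy(+) 1 (edgeR adjusted p = 0.0683, range over the settings 0.000707 to 0.133).

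Partners of small MAF proteins other than BACH1 were lower or did not pass the test. NFE2L3, a relative of NRF2, fell from 83.2 and 78.4 CPM to 53.4 and 58.8 CPM (-0.52 on the log2 scale, SE 0.0678, edgeR adjusted p = 0.00421). NFE2L2, which encodes NRF2, was at 141 and 153 CPM in Doxy(-), against 143 and 154 CPM in Doxy(+) (0.02, edgeR adjusted p = 0.883), and MAFK, the remaining small MAF gene, was at 46.8 and 43.96 CPM and at 42.8 and 37.0 CPM (-0.18, edgeR adjusted p = 0.186). Both were chosen after their values were seen, as were the other relatives that passed, CEBPB (0.67), JDP2 (0.45) and ATF4 (-0.12). CREB5, a relative of ATF2 that pairs with JUN, fell from 83.9 and 94.0 CPM to 64.4 and 66.1 CPM (-0.45, edgeR adjusted p = 0.00715), a call lost with limma on log2(TPM + 1) and on log2(TPM + 0.1), at adjusted p = 0.0583 and 0.0592. BATF, the nearest relative of BATF3, had 0 counts in all 4 libraries, which allows up to 0.233 CPM.

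The route from MAP kinases to the promoters of FOS and JUN genes was then examined at the RNA level. Of its 42 genes, 41 were tested, and 0 were higher, beside 9.81% of all genes tested. In the other direction 5 were lower (12.2%), a share near the 9.59% of all genes tested and the 11.6% of those with a mean of at least 5 CPM. The median log2 fold change was -0.02, and the 5 genes are given as single values. The kinase gene MAPK8 (JNK1, 89.7 and 95.4 CPM in Doxy(-), 78.2 and 85.2 CPM in Doxy(+)), chosen after its values were seen, did not pass the test (edgeR adjusted p = 0.102). SRF, the factor that binds the CArG box of FOS and other serum-response genes, fell from 58.4 and 57.7 CPM to 38.6 and 45.7 CPM (-0.46, SE 0.0863, edgeR adjusted p = 0.0154). ELK3, an ETS partner of SRF, fell by 0.27 on the log2 scale (edgeR adjusted p = 0.0294). MAP3K1, a kinase upstream of JNK, fell from 40.7 and 40.6 CPM to 29.6 and 27.1 CPM (-0.52, edgeR adjusted p = 0.00486). The p38 gene MAPK11 and the p38 effector MAPKAPK2 fell by 0.32 and 0.26 (edgeR adjusted p = 0.0134 for each). Without Doxy(+) 1 the edgeR adjusted p was 0.0580 for SRF, 0.130 for ELK3, 0.0728 for MAPK11 and 0.101 for MAPKAPK2. Without Doxy(+) 2 it was 0.143 for ELK3, 0.0894 for MAPK11 and 0.0785 for MAPKAPK2, and without Doxy(-) 2 it was 0.0789 for ELK3. The highest adjusted p over the settings was 0.149 for MAP3K1, 0.111 for SRF, 0.496 for ELK3, 0.190 for MAPK11 and 0.121 for MAPKAPK2, and the MAP3K1 call was lost with both limma settings.

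Genes induced by the same stimuli as FOS and JUN, listed with earlier results of these data known, were more often lower than higher. Of 47 other immediate-early genes, 41 were tested, and 20 were lower (48.8%, beside 9.59% of all genes tested) and 6 higher (14.6%, beside 9.81%), with a median log2 fold change of -0.25. KLF6, a zinc finger factor of injury responses, fell from 426 and 435 CPM to 277 and 276 CPM (-0.64, SE 0.0307, edgeR adjusted p = 0.000175). HBEGF, a ligand of the EGF receptor, fell from 51.7 and 49.3 CPM to 25.7 and 23.4 CPM (-1.04, SE 0.0725, edgeR adjusted p = 0.000502), the only member of this list lower past the fold limit. MYC, a driver of growth, fell from 213 and 237 CPM to 130 and 131 CPM (-0.78, edgeR adjusted p = 0.000587). CCN1, a secreted matrix protein, and RHOB, a small GTPase, fell by 0.51 and 0.80 on the log2 scale (edgeR adjusted p = 0.000593 and 0.000648). Each of these 5 genes passed in all 13 settings. EGR1, which shares the SRF route with FOS, was low in both groups, at 3.26 and 3.47 CPM in Doxy(-), against 2.87 and 2.83 CPM in Doxy(+) (-0.24, edgeR adjusted p = 0.517). ZFP36, whose protein speeds the decay of AU-rich transcripts such as that of FOS, was at 0.621 and 0.680 CPM in Doxy(-), on 7.71 and 10.5 estimated reads, and at 6.68 and 10.3 CPM in Doxy(+). ZFP36 passed the low-count filter through the Doxy(+) libraries, so no fold change or test is given for it. It is still among the 6 genes of this list counted as higher. EGR1 and ZFP36 were chosen after their values were seen.

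Finally, genes known as AP-1 targets were compared, on a list drawn up with earlier results of these data known. Of 32, 29 were tested, and 18 were lower (62.1%, beside 9.59% of all genes tested) and 2 higher (6.90%, beside 9.81%), with a median log2 fold change of -0.46. CXCL8 (interleukin 8), whose promoter has an AP-1 element, fell from 1040 and 1030 CPM to 382 and 382 CPM (-1.44, SE 0.0274, edgeR adjusted p = 1.03e-05). VIM (vimentin), an intermediate filament, fell by 0.51 on the log2 scale (edgeR adjusted p = 0.000203). HMOX1, a heme-degrading enzyme that NRF2, BACH1 and small MAF proteins also control, went the other way, from 42.0 and 40.6 CPM to 108 and 105 CPM (1.37, SE 0.0521, edgeR adjusted p = 7.6e-05). The other target that rose was the collagenase MMP13, at 2.33 and 2.31 CPM in Doxy(-) and 8.23 and 8.79 CPM in Doxy(+) (1.87, edgeR adjusted p = 0.0016). MMP13 and PLAU, the urokinase gene, at 954 to 1006 CPM over the 4 libraries (-0.02, edgeR adjusted p = 0.731), were chosen after their values were seen. Many of these genes answer to other factors as well, and no measure of AP-1 binding was used here.

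**Figure D4:**
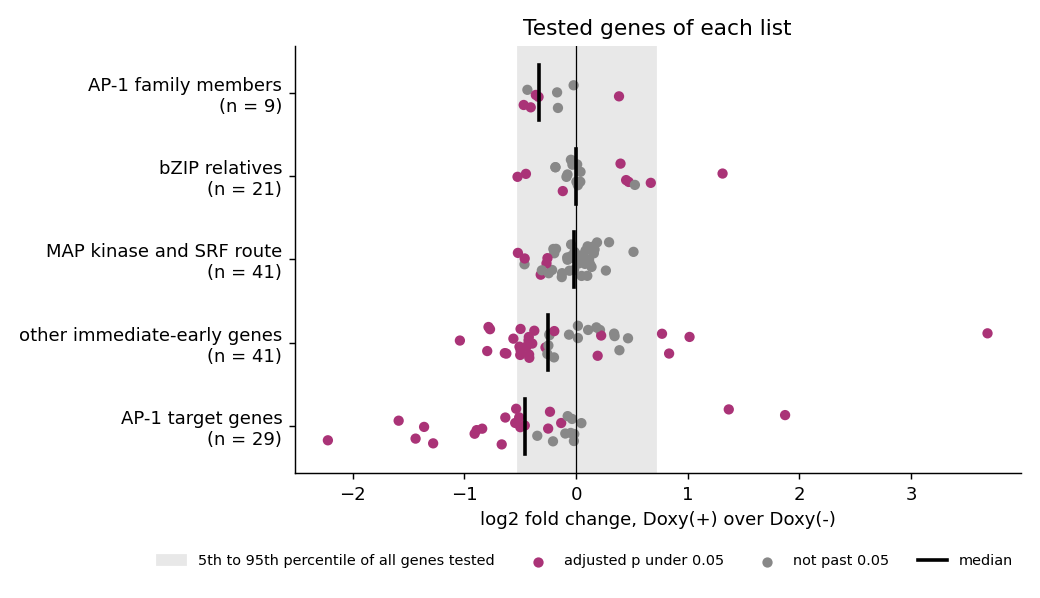
Log2 fold change of every tested gene in the family and in the other 4 lists, with 1 point per gene, purple for an adjusted p under 0.05, a black bar at the median, and grey shading from the 5th to the 95th percentile of all genes tested (-0.52 to 0.72). The medians are -0.34 for the 9 family members, 0.00269 for bZIP relatives, -0.02 for the kinase and SRF route, -0.25 for other immediate-early genes and -0.46 for target genes.

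The libraries held 14042545 to 16618401 estimated reads each. TFE3, part of the transgene, was at 66.9 and 69.1 CPM in Doxy(-), against 367 and 322 CPM in Doxy(+) (log2 fold change 2.34, SE 0.0719, edgeR adjusted p = 4.37e-05), the direction the labels imply, and PRCC did not pass the test (0.15, SE 0.112, edgeR adjusted p = 0.412). Among 9 renal epithelial markers, KRT8, KRT18, KRT19, CDH2, EPCAM and PAX8 were abundant, PAX2 had 0 counts in 3 libraries and CDH1 stayed under 1 CPM. Their summed level was 2162 to 2169 CPM in Doxy(-) and 1848 to 1880 CPM in Doxy(+). Of the 7 tested, 4 were lower (57.1%, beside 9.59% of all genes tested). Of 12 proximal tubule markers, 6 were tested, of which DPP4 and GGT1 rose (33.3%, beside 9.81% of all genes tested). The other 4 did not pass the test, with negative log2 fold changes for SLC5A2 and SLC34A1. AQP1, LRP2, ANPEP and HNF4A were at or below 0.233 CPM, and SLC22A6 and SLC22A8 were at 0. Markers of other cell types summed to 20.4 to 27.1 CPM, most of it COL1A1, and 7 of the 16 were at 0 in all libraries. The part of these marker changes in the AP-1 values was not tested.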

How the data were processed

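The authors sequenced polyadenylated RNA from stranded TruSeq libraries. The submitters' processing notes name Trim Galore 0.6.6, cutadapt 2.5, STAR 2.7.9a and hg38, and the study's methods add RSEM and DESeq2. The deposited tables have the columns of kallisto and give an estimated count and a TPM for each of 180253 Ensembl transcripts. The deposited estimated counts are not normalized, while the deposited TPM values are scaled per length and per library by the authors' quantifier. Neither the strand setting nor the versions of quantifier and Ensembl annotation are given in the sources used here.

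Of the transcripts, 150691 (83.6%) matched GENCODE release 44 on hg38, and the unmatched 29562, with 9.66% to 9.89% of each library's count, were left out. Matched estimated counts (12654233 to 15012743 per library) were summed per gene symbol, rounded and compared by edgeR 4.0.16 under R 4.3.3 (TMM, filterByExpr, glmQLFit and glmQLFTest, group as the only term, 2 residual degrees of freedom), with Benjamini-Hochberg adjustment over 13542 genes. The call limit was an adjusted p of 0.05. CPM is on the TMM-scaled library size, and SEs follow from the F statistic. A count of 0 allows 3 counts, or 0.204 to 0.233 CPM, for counting error only. Replicates differed by more than sampling noise (chi-square per degree of freedom 4.02 in Doxy(-) and 2.88 in Doxy(+)), and the common biological coefficient of variation was 6.47%.

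The members and lists were chosen with earlier results of these data known. Genes named were the members, TFE3, PRCC and the 5 tested genes with the smallest p in each of 4 lists, of which 2 are not reported here. Alternatives were RLE size factors, other low-count filters, DESeq2 1.42.0, limma 3.58.1 on TPM, length-scaled counts, counts with unmatched copies added, a replicate block, leaving out each library, the study's fold limit and an adjusted p of 0.01. The fit was also run on simulated counts drawn independently for each library, which does not give its error rate in these data. A protein table was not used here.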

Additional observations from a re-analysis of the deposited data

How the results depend on the processing

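Depth limits FOS, FOSB and BATF3, whose reads are few, and with 2 libraries per group each SD is itself imprecise. Of 31 named genes tested, 29 kept their direction in all 13 settings, and 17 kept both direction and side of the threshold. The exceptions in direction were JUNB, at 0.020 with limma on log2(TPM + 1), 0.020 on log2(TPM + 0.1) and 0.029 without Doxy(+) 1 (from -0.077 to 0.029 without 1 library), and PRCC, at -0.15 and -0.15 with limma, -0.19 with length-scaled counts and -0.029 without Doxy(+) 2 (from -0.029 to 0.30 without 1 library).

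Of the 1 member higher and 4 lower, 0 and 1 were called with limma on log2(TPM + 1) and 0 and 1 on log2(TPM + 0.1), 0 higher with length-scaled counts, 0 and 0 with the fold limit and 0 higher at an adjusted p under 0.01. Without 1 library, 0 to 1 members were higher and 2 to 5 lower. In the other 4 lists, 13 genes, ZFP36 among them, were higher and 46 lower. These became 7 and 25 with either limma setting, 5 and 6 with the fold limit, 7 higher with length-scaled counts and 6 higher at 0.01, and without 1 library 7 to 11 higher and 31 to 45 lower. Over all genes, 1328 were higher and 1299 lower. With limma these were 600 and 311 on log2(TPM + 1) and 596 and 303 on log2(TPM + 0.1), with length-scaled counts 678 and 586, with the fold limit 203 and 64, at 0.01 626 and 559, and without 1 library 672 to 1250 higher and 596 to 1327 lower. In the other lists and over all genes, the lower counts came with leaving out Doxy(+) 1 or 2 rather than a Doxy(-) library. Leaving out any library leaves its group with 1 library, assumed to vary like the other group. Why the Doxy(+) libraries mattered more was not tested. The stricter limits lower counts by construction, and for limma and length-scaled counts the cause was not tested.

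Over the tested genes, same-numbered libraries did not deviate together (correlation -0.00915), and the labels do not say that the number marks a pairing. A correlation over all genes cannot decide this for single genes, and AREG, described below, followed the number. The number was left out of the main fit and used as a block in an alternative. With the replicate block, 1 member was higher and 4 lower, as were 13 and 45 genes of the other lists and 1282 and 1261 of all genes.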

Other observations

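The estimated counts of single transcripts of AP-1 genes depend on how the quantifier divided reads that fit more than 1 of them. These values are a description and were not tested. FOSL2-201, the long form, carried 79.9% and 81.0% of the FOSL2 reads in Doxy(-) and 72.6% and 78.8% in Doxy(+). In reads it went from 5903 and 6654 to 4099 and 4682, while FOSL2-202 stood at 1451 and 1546 in Doxy(-) and at 1550 and 1247 in Doxy(+). The main ATF3 form, ATF3-202, held 69.0% and 58.5% of ATF3 reads in Doxy(-), but 32.8% in Doxy(+) 1 and 83.1% in Doxy(+) 2, so the libraries of Doxy(+) lay on both sides of Doxy(-). ATF3-206 held 54.6% in Doxy(+) 1, where ATF3-202 was lowest. For FOSL1, FOSL1-204 had 12.4 and 38.8 reads in Doxy(-) and was listed at 0 in both Doxy(+) libraries. The reads of MAFF were divided mainly between MAFF-204, at 196 and 187 reads in Doxy(-) and 219 and 319 in Doxy(+), and MAFF-201, at 123 and 170 in Doxy(-) and 201 and 140 in Doxy(+).

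Among the AP-1 targets, AREG, an EGF receptor ligand chosen after its values were seen, followed the replicate number rather than the group. AREG was at 11.3 CPM in Doxy(-) 1 and 10.02 CPM in Doxy(+) 1, but at 0.476 CPM in Doxy(-) 2 and 1.04 CPM in Doxy(+) 2 (log2 fold change -0.08, SE 1.27, edgeR adjusted p = 0.976).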
